A study of Mus musculus with 36 samples.

Results

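The genes described here encode the glutamate receptors, the vesicular glutamate transporters and the postsynaptic scaffold proteins of excitatory synapses. Their 36 symbols were matched to the raw expression table through GENCODE M21 gene names, with the condition that the mean level reach 0.5 CPM (estimated reads of a gene per megaread of library, with TMM scaling) in at least 1 of 8 groups. All 36 matched 1 row each and reached that level, out of 55487 genes in the table. They comprise the AMPA receptor subunits Gria1 to Gria4, the kainate receptor subunits Grik1 to Grik5, the NMDA receptor subunits Grin1, Grin2a to Grin2d, Grin3a and Grin3b, the delta receptor Grid1, the metabotropic receptors Grm2 to Grm5, Grm7 and Grm8, the transporters Slc17a6 to Slc17a8, and the scaffolds Dlg1 to Dlg4, Homer1 to Homer3 and Shank1 to Shank3. In the tests 33 of them were counted deeply enough in dorsal root ganglion (DRG), where Grin2b, Grin3b and Grm2 were not, and all 36 in spinal cord.

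The study sequenced poly(A) RNA of DRG and dorsal spinal cord from female wild-type and knockout mice, uninjured (naive) or after spared nerve injury (SNI), an operation that cuts branches of the sciatic nerve and leaves one intact. Each tissue had 5 naive and 4 injured libraries per genotype, 36 in all. The groups were naive wild type, injured wild type, naive knockout and injured knockout, and the labels name no other treatment. How the knockout was made, the strain and age of the mice, the time after SNI, the ganglia taken, and whether each library came from 1 animal or a pool are not given in the sources used here, so p values measure the spread between libraries, which may be technical.

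Depth ran from 21.3 to 27.3 M estimated reads. In 2 naive knockout DRG libraries, replicates 1 and 2, the title says wild type while the genotype field says knockout, and they were grouped by the genotype field, which their column names in the deposited table share. Every naive library carried a letter from A to C and every injured library the letter E or F in its title, so injury and letter cannot be told apart. DRG held the sensory neuron markers and cord the markers of cord neurons: 6 of the latter summed to 1.32 to 6.18 CPM in DRG libraries and 1037.8 to 1251.6 CPM in cord libraries. Values after ± are standard deviations for CPM and standard errors for log2 fold changes, and a gene was called when its Benjamini-Hochberg adjusted p, over all genes tested by edgeR's quasi-likelihood F test, was under 0.05.

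Primary sensory neurons have their cell bodies in the DRG and release glutamate in the dorsal horn, where AMPA receptors carry the fast response and NMDA receptors add a slower one that lets calcium in and is blocked by magnesium at rest. Every NMDA receptor needs the subunit encoded by Grin1, and AMPA receptors that contain the edited product of Gria2 are nearly impermeable to calcium. Kainate receptors act on both sides of the synapse, and the subunit encoded by Grik1 is known for its place in small sensory neurons. Group I metabotropic receptors such as Grm5 excite through Gq, while Grm2, Grm3, Grm4, Grm7 and Grm8 couple to inhibitory G proteins. The transporters load glutamate into vesicles, and the Dlg, Homer and Shank proteins tie the receptors to the postsynaptic density.

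In naive wild-type tissue the sensory ganglion carried a different set of these genes from the cord. Levels between genes were compared per kilobase of exon. In DRG the highest were Grik1, at 43.0 ± 3.89 CPM per kb (n = 5), and Slc17a6, the main vesicular transporter of sensory neurons, at 42.9 ± 4.29 CPM per kb, and the libraries of these neighbours in the order overlapped. Gria4 followed at 15.9 ± 0.573 CPM per kb and overlapped neither Slc17a6 nor the next gene, Slc17a7, at 10.1 ± 2.27 CPM per kb. From Slc17a7 down to Dlg2, each gene overlapped its neighbour. In cord the order began with Slc17a6 at 57.1 ± 2.34, Gria4 at 37.4 ± 1.43, Grin1 at 33.1 ± 0.681 and Gria1 at 25.2 ± 0.991 CPM per kb, and of these Gria1 alone overlapped the gene after it, Gria2 at 23.2 ± 2.08 CPM per kb. The length used mattered for this order: per kilobase of the longest protein-coding transcript, Grin1 and Slc17a6 overlapped at 75 ± 1.54 and 74.5 ± 3.06 CPM per kb, and in DRG Grik1 then stood alone at 79.0 ± 7.15.

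Each class had its own leading gene (values are CPM per kb of exon in naive wild type unless another length is named). Among NMDA genes Grin1 led in both, and the lowest was Grin2b in DRG, at 0.00925 ± 0.0023, and Grin3b in cord, at 1.03 ± 0.165. Among kainate genes Grik1 led in DRG, where Grik2 was lowest at 1.8 ± 0.155, whereas in cord Grik5 led at 12.6 ± 0.59 and Grik1 was lowest at 3.11 ± 0.172. Per kilobase of the longest transcript Grik1 and Grik5 still led in DRG and cord, but the lowest were Grik3 in DRG, at 2.03 ± 0.524, and Grik4 in cord, at 4.28 ± 0.222, below Grik1 at 5.71 ± 0.316. Metabotropic receptors ran from Grm2, at 0.0226 ± 0.0149, to Grm7, at 8.11 ± 1.31, in DRG, and from Grm2, at 0.895 ± 0.108, to Grm5, at 14.8 ± 0.996, in cord. The lowest AMPA gene was Gria1 in DRG, at 2.22 ± 0.413, and Gria3 in cord, at 14.6 ± 0.638, where per kilobase of the longest transcript Gria1 and Gria3 overlapped, at 27.4 ± 1.08 and 27.8 ± 1.21. The lowest transporter gene was Slc17a8 in DRG, at 1.66 ± 0.359, and Slc17a7 in cord, at 0.0613 ± 0.0195. Among scaffolds Dlg4 had the highest mean of its family in both tissues, at 4.37 ± 0.794 in DRG, where it overlapped Dlg2, and 18.6 ± 0.504 in cord. Homer2 led in DRG at 4.35 ± 0.272, while in cord Homer3, at 2.89 ± 0.133, overlapped Homer1, at 2.66 ± 0.273, and per kilobase of the longest transcript Homer1 led at 5.58 ± 0.573 against 3.82 ± 0.176 for Homer3. Shank3 led in DRG at 1.66 ± 0.0918, and Shank1 in cord at 16.1 ± 0.316. Grid1, the delta receptor gene, stood at 1.24 ± 0.134 in DRG and 8.69 ± 0.402 in cord.

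**Figure D1:**
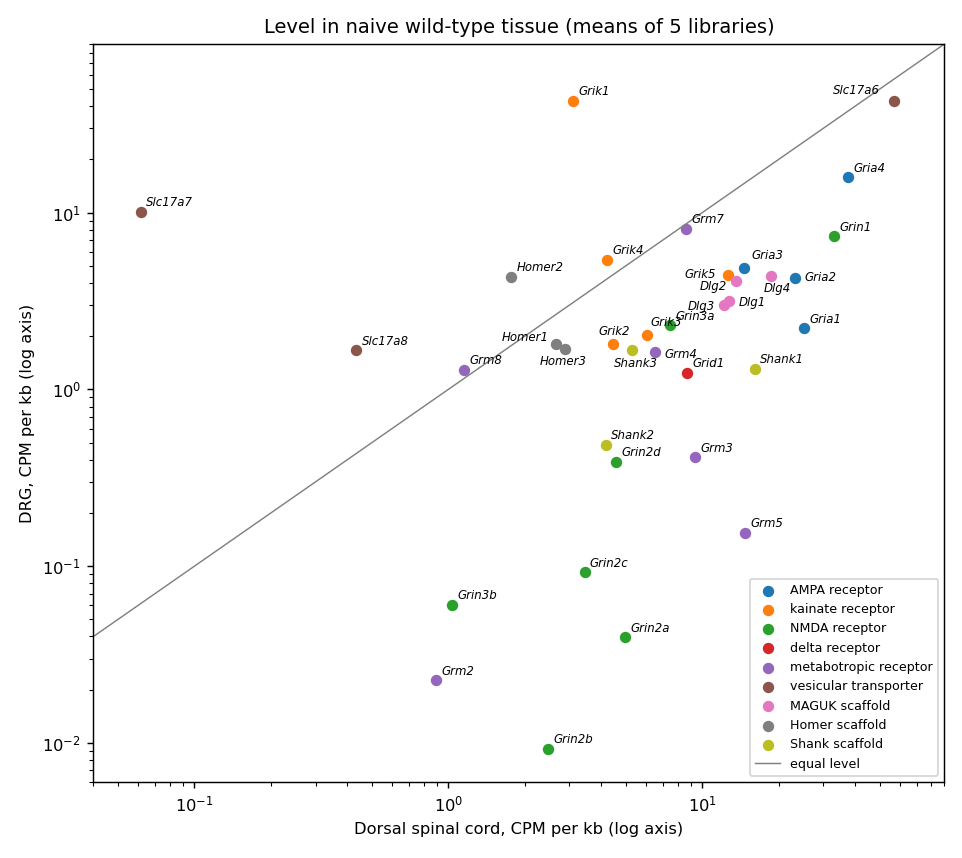
Mean level of each of the 36 genes in naive wild-type dorsal spinal cord (x axis) and DRG (y axis), in CPM per kilobase of exon on log axes, 5 libraries per tissue. Points above the grey line are higher in DRG: Grik1, Slc17a7, Slc17a8, Homer2 and Grik4 are called so, and Grin2b, Grin2a and Grm5 lie farthest below it.

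Between the tissues 5 of the 36 genes were called higher in DRG and 29 lower, where 40.1% and 36.6% of all 20626 genes tested were called higher and lower (76.7% in either direction). The median log2 difference (DRG minus cord) was -1.86 over the 36 and 0.06 over all genes. The libraries of the 2 tissues did not overlap for 33 of the 36 (63.5% of all genes). All 34 calls were kept under every alternative that was run.

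Slc17a7, which encodes the vesicular transporter of large myelinated afferents, had the largest excess in DRG. Its naive wild-type DRG libraries held 40.7, 46.7, 50.9, 66.1 and 68.8 CPM and the cord libraries 0.208, 0.275, 0.319, 0.359 and 0.489 CPM. All DRG libraries thus lay above all cord libraries, and the log2 difference was 7.35 ± 0.31 (adjusted p = 4.26e-20). Grik1 held 261.2, 265.6, 287.0, 310.3 and 319.8 CPM in DRG and 19.1, 20.8, 21.1, 21.1 and 22.3 CPM in cord, a 13.8-fold difference (log2 3.79 ± 0.09, adjusted p = 1.83e-28). Slc17a8, the transporter of a class of unmyelinated touch neurons, was 3.82-fold higher in DRG, the scaffold gene Homer2 2.46-fold and the high-affinity kainate subunit gene Grik4 1.28-fold.

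The NMDA receptor genes showed the widest gap in the other direction, with 7 of 7 lower in DRG and a median log2 difference of -4.05. Grin2b held 0.171, 0.208, 0.208, 0.24 and 0.322 CPM in DRG and 54.2, 58.2, 63.6, 64.1 and 67.6 CPM in cord (log2 difference -8.02 ± 0.14, adjusted p = 3.12e-32). Its DRG libraries were close to the limit of counting, and the gene was not tested within that tissue. Grm5 held 1.4, 1.42, 1.52, 1.54 and 2.05 CPM in DRG and 136.4, 148.4, 150.2, 157.3 and 163.5 CPM in cord (-6.58 ± 0.11, adjusted p = 6.98e-33). Grin2a, a further partner of the Grin1 product, held 0.32, 0.541, 0.684, 0.761 and 1.25 CPM in DRG against 83.9, 85.9, 86.5, 89.2 and 100.3 CPM in cord (-6.93 ± 0.14, adjusted p = 1.67e-30). Shank1 held 12.7, 12.7, 12.7, 14.8 and 16 CPM in DRG and 166.6, 167.4, 167.9, 169.1 and 174.9 CPM in cord (-3.62 ± 0.08, adjusted p = 4.8e-30). In none of these 4 genes did the libraries of the tissues overlap. Grin1 itself was 4.51-fold lower in DRG. Grm7 and Grm8 were the 2 genes not called between tissues, at -0.09 ± 0.09 (adjusted p = 0.357) and 0.16 ± 0.09 (adjusted p = 0.097).

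Shares within a family showed the same contrast on the per-kilobase scale. They were computed after the levels had been seen, per kilobase of exon unless another length is named, and carry no test. Gria4 made up 58.3 ± 1.69% of the 4 AMPA subunit genes in naive wild-type DRG and 37.2 ± 0.803% in cord, while Gria1 made up 8.14 ± 1.35% and 25.1 ± 0.769%. Of the 4 Grin2 genes, Grin2d held 73.5 ± 2.47% in DRG and 29.6 ± 2.16% in cord. These genes were low in DRG, with Grin2d at 2.6 ± 0.444 CPM and Grin2a, Grin2c and Grin2b at 0.712, 0.464 and 0.23 CPM. Grin1 stood at 71.1 ± 14.7 CPM there. Of the 5 kainate genes, Grik1 held 75.9 ± 0.726% in DRG and 10.2 ± 0.715% in cord. Slc17a6 held 99.1 ± 0.198% of the transporter genes in cord, and Slc17a7 18.3 ± 1.9% in DRG. The length used moved these shares. Per kilobase of the longest transcript Gria4 held 50.4% in DRG and 32.5% in cord, and Gria1 6.62% and 20.6%. Grin2d then held 75.8% and 31.6%, and Grik1 83.1% and 14.4%. Slc17a6 was then at 99.2% in cord and Slc17a7 at 24.3% in DRG.

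**Figure D2:**
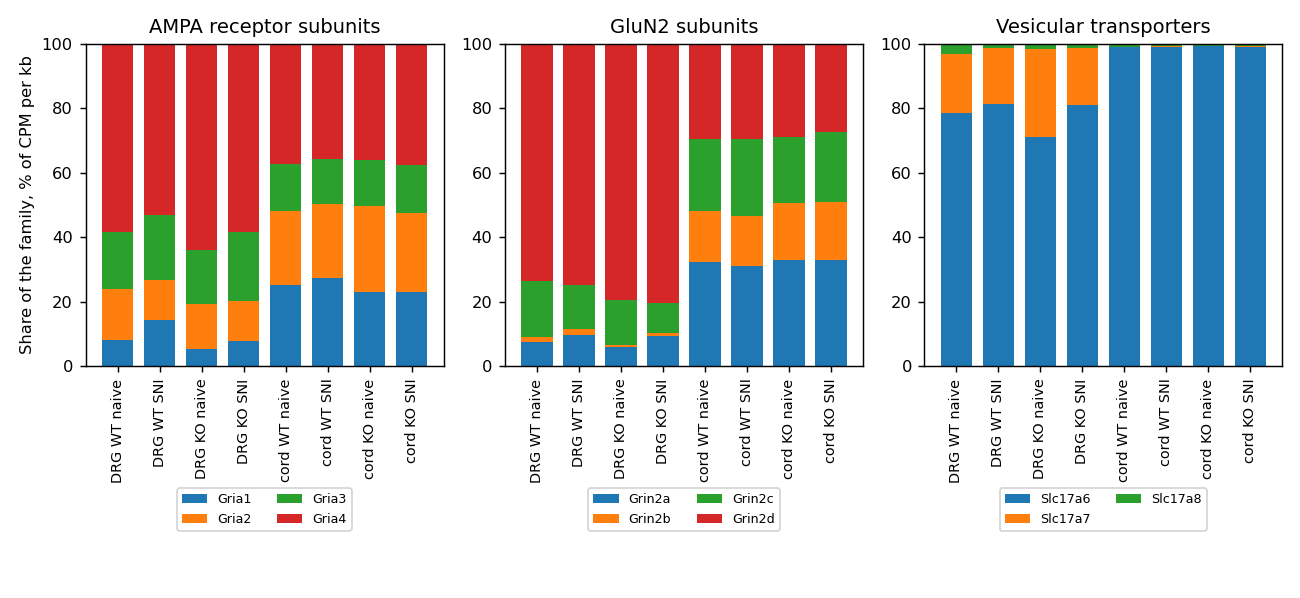
Share of each gene in its family (y axis, percent of summed CPM per kilobase of exon, mean over the libraries of a group) for AMPA subunits, Grin2 subunits and vesicular transporters in the 8 groups (x axis). Gria4 and Grin2d take more than any other family member in the DRG groups, at 58.3% and 73.5% in naive wild-type DRG. The Grin2 genes were low there, with Grin2d at a mean of 2.6 CPM.

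After nerve injury in wild-type DRG, 11 of 33 genes were lower and 2 higher than in naive DRG, where 12.3% of all genes tested were lower and 12.6% higher (24.9% in either direction). The genes that fell were Gria2, Gria3, Gria4, Grik1, Grin1, Grin3a, Grm3, Grm8, Slc17a8, Homer1 and Shank1, by 1.16-fold (Homer1) to 2.06-fold (Slc17a8). Those that rose were Grik2, by 1.21-fold, and Homer3, by 1.40-fold. The median log2 fold change was -0.14 over the 33 and -0.01 over all genes, and the groups did not overlap for 8 of the 33 (18.2% of all genes). In whole tissue, fewer cells of a type and less RNA per cell cannot be told apart.

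Gria2, which sets the calcium permeability of AMPA receptors, held 62.9, 64.7, 67.4, 67.6 and 69.8 CPM in naive wild-type DRG and 31.5, 32.8, 38.2 and 42.7 CPM after SNI. No injured library reached a naive one, and the log2 fold change was -0.87 ± 0.08 (adjusted p = 1.15e-07). Gria4, the most abundant AMPA subunit gene of the ganglion, fell from 94.8, 98.4, 101.4, 103.2 and 103.3 CPM to 52.9, 63.2, 70.3 and 72.6 CPM (-0.62 ± 0.07, adjusted p = 2.36e-06). Gria3 fell by 1.26-fold, again without overlap. Gria1 did not follow the other AMPA genes: its libraries held 11.1, 11.8, 12.0, 16 and 16.3 CPM before and 12.9, 14.5, 18.9 and 20.5 CPM after injury, with overlap (0.32 ± 0.16, adjusted p = 0.146). Within the AMPA family the share of Gria1 was 8.14 ± 1.35% in naive and 14.3 ± 2.04% in injured libraries, and that of Gria2 15.7 ± 0.915% and 12.3 ± 2.53%.

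Grik1 fell from 261.2, 265.6, 287.0, 310.3 and 319.8 CPM to 130.9, 155.4, 187.0 and 189.0 CPM in wild-type DRG (-0.79 ± 0.11, adjusted p = 1.59e-05). All injured libraries lay below all naive ones, and its share of the kainate genes was 75.9 ± 0.726% in naive and 65.2 ± 1.64% in injured libraries. Grik2, whose product forms kainate receptors with that of Grik5, went the other way, from 21.3, 22.8, 23.3, 25.9 and 26.1 CPM to 27.5, 28.1, 28.9 and 30.2 CPM (0.27 ± 0.07, adjusted p = 0.00911). Shank1, a scaffold that links receptor complexes to actin, fell from 12.7, 12.7, 12.7, 14.8 and 16 CPM to 7.23, 7.77, 8.98 and 10.9 CPM (-0.65 ± 0.10, adjusted p = 9.01e-05). Its injured libraries all lay below its naive ones. Slc17a8 fell from 5.33, 6.95, 8.45, 8.93 and 9.52 CPM to 3.11, 3.4, 3.86 and 4.71 CPM (-1.04 ± 0.16, adjusted p = 7.13e-05). Replicates 2 and 4 of injured wild-type DRG were the lowest libraries of their group for Gria1, Gria4, Grik1, Grin1, Grm7, Slc17a7, Dlg2 and Homer1, and the highest of it for Gria2. Left out in turn with every other library, they gave counts of called members between 11 and 14.

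**Figure D3:**
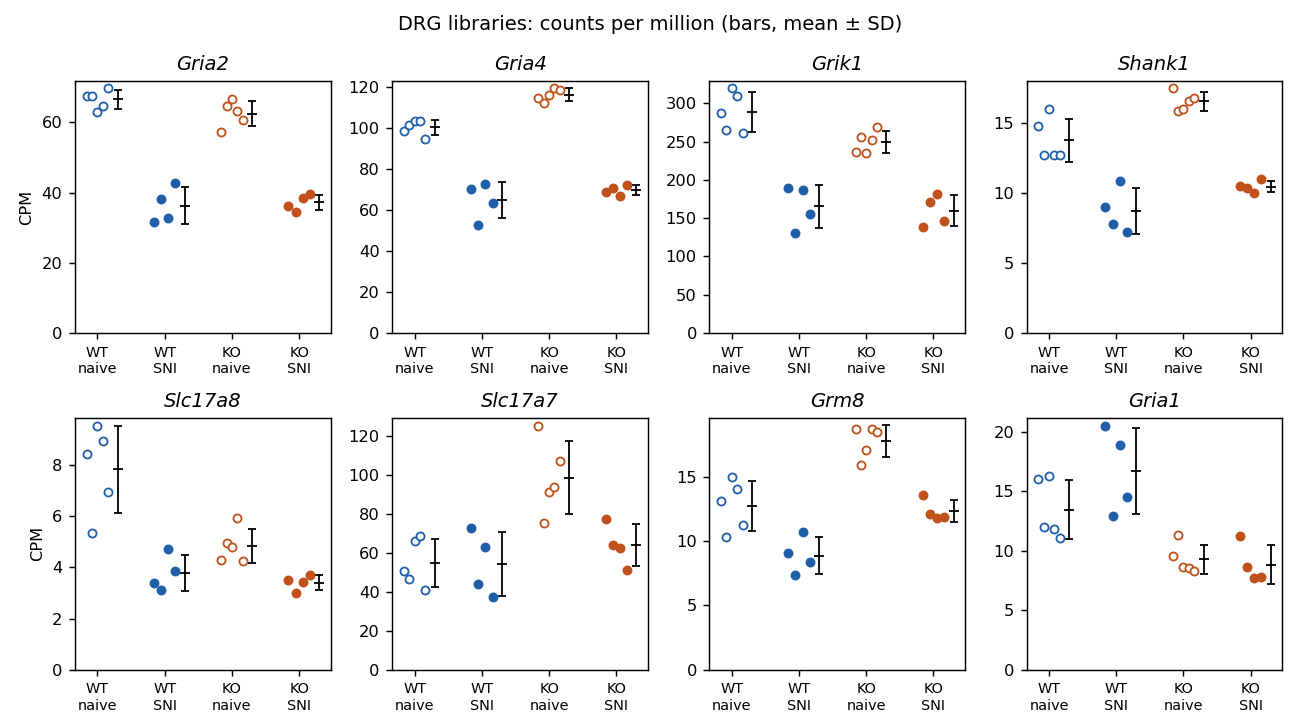
Level of 8 genes in each DRG library (y axis, CPM, from 0) by group (x axis), with open points for naive and filled points for SNI libraries and bars for mean ± SD. Gria2, Gria4, Grik1 and Shank1 fall in both genotypes without overlap, while Gria1 is lower in knockout libraries, at 7.7 to 11.3 CPM against 11.1 to 20.5 CPM in wild type.

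In knockout DRG the same contrast gave 14 lower and 3 higher genes of 33, where 13.3% of all genes tested were lower and 15.1% higher (28.5% in either direction), with a median log2 fold change of -0.28 over the 33 and 0.01 over all genes. The groups did not overlap for 16 of the 33 (33.1% of all genes). The injury contrasts of the 2 genotypes share no libraries, though they share the spread estimated over all DRG libraries. The 9 genes Gria2, Gria3, Gria4, Grik1, Grin1, Grin3a, Grm8, Shank1 and Slc17a8 were lower in both, which is 81.8% of the wild-type list and 64.3% of the knockout list. Grik2 and Homer3 were higher in both.

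Gria2 held 57.2, 60.7, 63.1, 64.7 and 66.5 CPM in naive and 34.5, 36.3, 38.4 and 39.5 CPM in injured knockout DRG (-0.71 ± 0.08, adjusted p = 1.17e-06). Gria4 fell from 112.2, 114.4, 116.1, 118.7 and 119.5 CPM to 67.0, 68.9, 70.6 and 72.3 CPM (-0.70 ± 0.07, adjusted p = 4.75e-07). Shank1 fell from 15.9, 16, 16.6, 16.8 and 17.5 CPM to 9.98, 10.4, 10.5 and 11.0 CPM (-0.63 ± 0.10, adjusted p = 0.000109). These 3 groups of injured libraries all lay below the naive ones. Grik1 fell from 235.6, 235.9, 252.8, 256.6 and 269.3 CPM to 139.1, 145.9, 171.8 and 181.2 CPM (-0.61 ± 0.11, adjusted p = 0.000215), likewise without overlap. Dlg4, which encodes PSD-95, fell in knockout DRG by 1.42-fold (adjusted p = 0.00319) and was at -0.26 ± 0.12 in wild type (adjusted p = 0.116). Grik4, Grin2c, Grm4 and Slc17a7 also fell in knockout and Slc17a6 rose, by 1.16-fold to 1.92-fold. Grin2c was low throughout DRG, at 0.427 ± 0.11 CPM in naive and 0.216 ± 0.0595 CPM in injured knockout.

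The difference in injury response between genotypes was tested directly and no member was called in DRG. At an unadjusted p under 0.05 in edgeR there were 2 of 33 members and 1160 of 19496 genes, which are similar shares. Over all genes edgeR called 5 (0.0256%), 4 of them higher (0.0205%) and 1 lower (0.00513%). DESeq2 called no member either and 24 genes. The 2 members at that unadjusted p, neither of them called, were Slc17a8, with a log2 change of 0.57 ± 0.23 for knockout minus wild type (adjusted p = 0.835 in edgeR), and Slc17a7, with -0.59 ± 0.28 (adjusted p = 0.835).

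**Figure D4:**
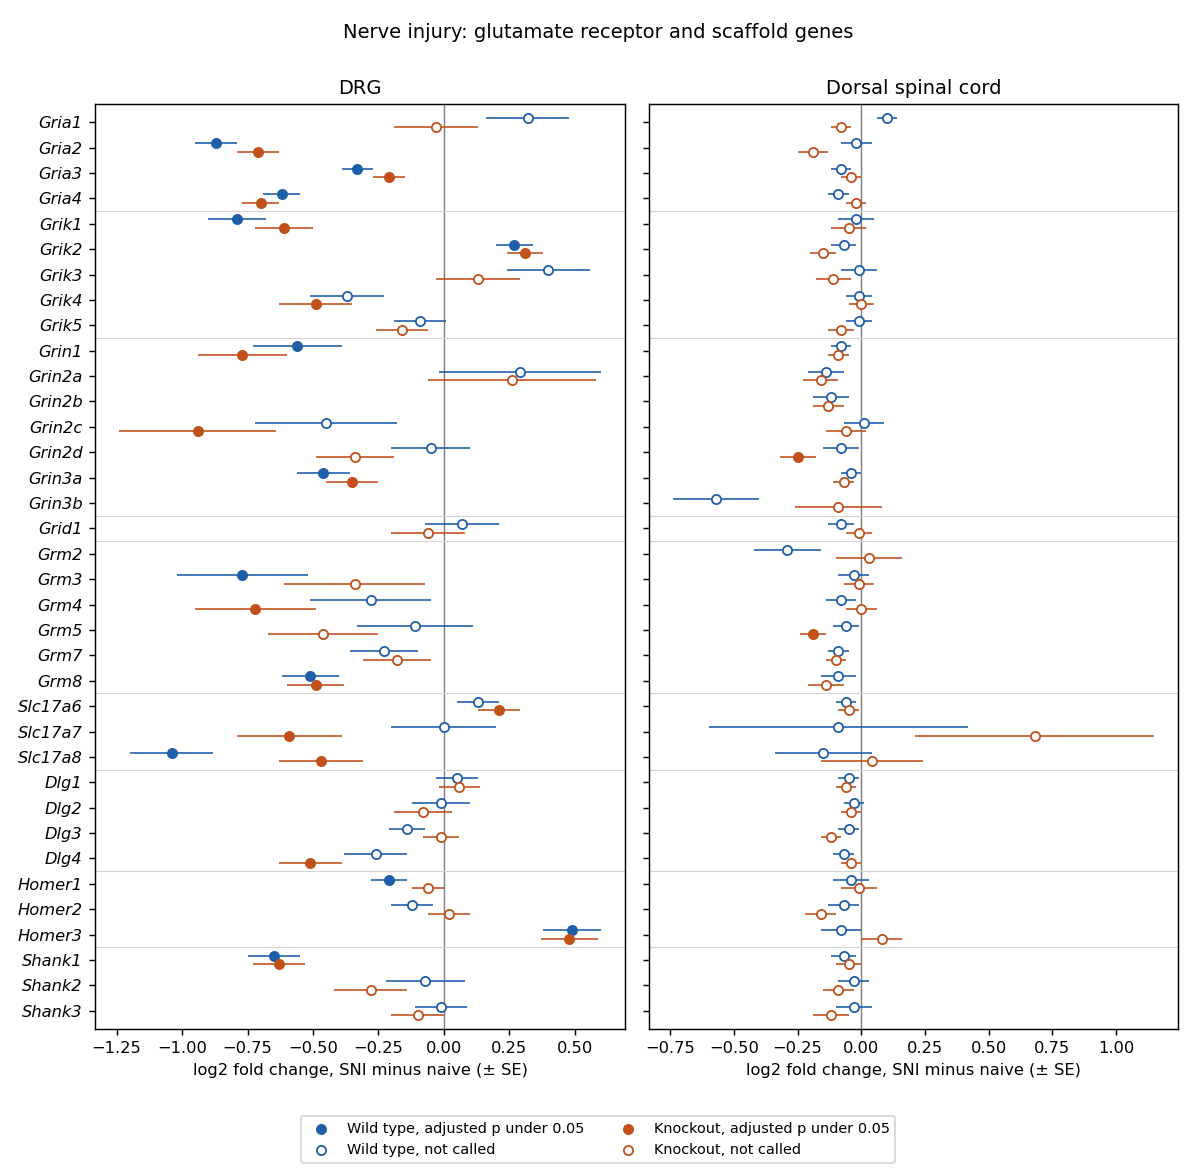
Log2 fold change of each gene after injury (x axis, SNI minus naive, ± standard error) in DRG and dorsal spinal cord for wild type and knockout. Filled points are called: in DRG 11 and 14 genes lie to the left and 2 and 3 to the right in wild type and knockout, while in cord 2 points are filled, Grin2d and Grm5 in knockout.

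The calls held unevenly across the alternatives. In wild-type DRG, 10 of the 13 called genes kept their call in every alternative that was run, and Grin1, Grm3 and Homer1 did not. For example, Grin1 had adjusted p = 0.104 by edgeR in a fit of only the groups compared and 0.0943 without injured replicate 2. In knockout DRG 11 of 17 kept theirs, and Gria3, Grin2c, Grm4, Slc17a6, Slc17a7 and Slc17a8 did not. Without the 2 naive knockout libraries titled wild type 12 were called, 10 lower and 2 higher, and Gria3, Grin2c, Slc17a6, Slc17a7 and Slc17a8 had adjusted p of 0.105, 0.153, 0.112, 0.0646 and 0.0684 by edgeR.

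Gria2 and Grin1 are textbook carriers of the RE1 element, the sequence that the repressor REST binds. The bases ahead of their start sites are shown, with those of Grik2. After injury in DRG Gria2 and Grin1 were called lower and Grik2 higher in both genotypes. In wild type the Grin1 call was kept in 8 of 14 alternatives. RefSeq (GRCm38.p6) gave a promoter for 25 of the 36 genes. The RE1 consensus was compared at its 15 defined letters, on both strands, in the 250 bases before each start. Capitals below mark the stretch that matched best, and each window is read 5′ to 3′ on the gene's strand, which is the minus strand for all 3.
Gria2, chr3:80802836-80803085: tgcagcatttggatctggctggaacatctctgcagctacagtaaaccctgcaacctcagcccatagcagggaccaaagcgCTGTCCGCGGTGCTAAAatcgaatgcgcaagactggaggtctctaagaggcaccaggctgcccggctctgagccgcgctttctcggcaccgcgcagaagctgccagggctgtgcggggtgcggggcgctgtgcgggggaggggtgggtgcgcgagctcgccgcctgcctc
Grin1, chr2:25319188-25319437: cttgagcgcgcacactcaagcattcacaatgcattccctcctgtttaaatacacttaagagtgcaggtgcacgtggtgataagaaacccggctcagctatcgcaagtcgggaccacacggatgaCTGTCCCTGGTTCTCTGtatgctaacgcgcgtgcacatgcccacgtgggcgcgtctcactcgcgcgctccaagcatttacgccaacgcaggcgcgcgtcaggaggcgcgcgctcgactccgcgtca
Grik2, chr10:49788755-49789004: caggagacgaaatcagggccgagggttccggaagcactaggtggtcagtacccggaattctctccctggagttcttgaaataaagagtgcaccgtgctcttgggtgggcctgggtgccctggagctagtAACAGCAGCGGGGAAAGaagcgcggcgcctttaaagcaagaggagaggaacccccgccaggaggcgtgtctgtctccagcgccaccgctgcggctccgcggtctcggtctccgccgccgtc
In Gria2 the marked stretch, 170 bases before the start and in reverse orientation, matched 14 of 15 letters, and 0.0517% of the 32851 promoter windows in the table held a match with at most 1 mismatch. Grin1 and Grik2 matched 11 of 15 letters, as did Dlg2 and Grm3, and 8.04% of all windows held a match at least that close. Of the other genes lower after injury in DRG of both genotypes that had a window, Gria4 and Grm8 matched 9 letters and Slc17a8 10. A match is a description of the letters, and binding was not measured. A part of REST in the injury results was not tested.

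In dorsal spinal cord few of these genes were called after injury. No member was called in wild type by edgeR or by DESeq2. At an unadjusted p under 0.05 there were 5 of 36 members (Gria1, Gria4, Grin3b, Grm2 and Grm7) and 2098 of 18843 genes. Over all 18843 genes, 0.271% were called lower and 2.61% called higher (2.88% in either direction), and the libraries did not overlap for 1 of the 36 genes (4.74% of all genes). The median log2 fold change was -0.07 over the 36 and -0.01 over all genes. In knockout 2 of 36 fell and none rose, where 0.626% of all genes were lower and 3.79% higher (4.42% in either direction), and for 2 of 36 the libraries did not overlap (7.73% of all genes). Grm5 held 159.3, 169.7, 174.2, 175.8 and 186.1 CPM in naive and 143.2, 154.4, 155.1 and 156.1 CPM in injured knockout cord, without overlap (-0.19 ± 0.05, adjusted p = 0.0168). Grin2d held 30.9, 32.1, 32.6, 32.8 and 37.5 CPM and then 25.2, 25.5, 30.3 and 31.1 CPM, with overlap (-0.25 ± 0.07, adjusted p = 0.0274). Both calls rest on single libraries: without injured knockout replicate 3, the lowest library for each, edgeR gave adjusted p = 0.117 for Grm5 and 0.156 for Grin2d, and no member was called. In these cord libraries the 8 sensory neuron markers summed to 65.0 to 74.6 CPM in naive and 115.0 to 169.2 CPM in injured knockout, with 1 called (Scn9a, higher). After injury 7 of 8 macrophage or microglia markers and 2 of 6 astrocyte markers (Gfap and Aqp4) were higher in either genotype, and Gad1 of the cord neuron list was lower. Astrocyte markers summed to 3096.1 to 3316.2 CPM in naive and 4261.3 to 4534.9 CPM in injured knockout. Of 10 general neuron markers 2 were higher and 1 lower in knockout. The part of these markers was not tested. The difference in injury response between genotypes gave no called gene in cord by edgeR or DESeq2. At an unadjusted p under 0.05 in edgeR there were 2 of 36 members (Gria1 and Gria2) and 1150 of 18843 genes, which are similar shares.

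The injury response of wild-type DRG differed from that of wild-type cord, by a test of the difference, for 11 of 36 genes: 9 were lower and 2 higher, against 6.92% and 5.59% of all genes tested (12.5% in either direction). The largest differences (DRG minus cord) were -0.91 ± 0.25 for Slc17a8 (adjusted p = 0.0111), -0.85 ± 0.10 for Gria2 (adjusted p = 6.19e-08) and -0.78 ± 0.13 for Grik1 (adjusted p = 3.35e-05). Gria2 held 316.9 to 401.5 CPM in naive and 340.4 to 381.8 CPM in injured wild-type cord, so its cord libraries overlapped. Gria4 held 226.8 to 247.2 CPM in naive and 213.2 to 232.0 CPM in injured wild-type cord, Grik1 19.1 to 22.3 and 17.9 to 21.8 CPM, and Shank1 166.6 to 174.9 and 147.6 to 174.9 CPM, all with overlap (DRG minus cord -0.55 ± 0.08 for Gria4, -0.78 ± 0.13 for Grik1 and -0.58 ± 0.11 for Shank1). Grik2 and Homer3 were the 2 genes called with a positive difference, 0.33 ± 0.08 and 0.56 ± 0.13. The main fit did not use the number shared by libraries of the 2 tissues. Same-numbered libraries of the tissues deviated together at r = 0.145 to 0.341 in naive and 0.086 to 0.207 in injured wild type. With that number as a block, Gria3 and Grm3 lost the call (adjusted p = 0.0502 and 0.0534 in edgeR). Gria2, Gria4, Grik1, Grik2, Homer3 and Shank1 kept it in every alternative that was run.

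In naive DRG more of these genes were higher than lower in knockout. In all, 7 of 33 were higher and 2 lower in knockout, where 12.8% of all genes tested were higher and 15.4% lower (28.2% in either direction), and the median log2 fold change was 0.10 over the 33 and -0.02 over all genes. The higher genes were Gria4, Grin1, Grm5, Grm8, Slc17a7, Dlg2 and Shank2, by 1.14-fold (Gria4) to 1.78-fold (Slc17a7). The lower were Gria1, by 1.47-fold, and Slc17a8, by 1.64-fold. The libraries did not overlap for 4 of the 33 (18.8% of all genes).

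Slc17a7 held 40.7, 46.7, 50.9, 66.1 and 68.8 CPM in naive wild-type and 75.4, 91.3, 93.6, 107.4 and 125.0 CPM in naive knockout DRG (0.83 ± 0.19, adjusted p = 0.00529). Slc17a8 held 5.33, 6.95, 8.45, 8.93 and 9.52 CPM in wild type and 4.25, 4.3, 4.79, 4.97 and 5.92 CPM in knockout (-0.71 ± 0.15, adjusted p = 0.00308). Slc17a7 thus did not overlap between genotypes, while the lowest wild-type library of Slc17a8 lay within the knockout range. Grm8, an inhibitory presynaptic receptor, held 10.3, 11.3, 13.1, 14.1 and 15.0 CPM against 15.9, 17.1, 18.5, 18.7 and 18.7 CPM (0.46 ± 0.10, adjusted p = 0.00496). Dlg2, which encodes the scaffold PSD-93, held 61.4, 64.5, 67.7, 70.6 and 71.8 CPM against 83.2, 88.8, 94.4, 96.8 and 96.8 CPM (0.43 ± 0.10, adjusted p = 0.00594). For both genes every knockout library lay above every wild-type one.

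Of these 9 calls 5, Gria1, Slc17a7, Slc17a8, Grm8 and Dlg2, held in every alternative that was run. Without the 2 knockout libraries titled wild type 5 members were called, 3 higher and 2 lower, and Gria4, Grin1, Grm5 and Shank2 had adjusted p of 0.0592, 0.0523, 0.0959 and 0.0524 by edgeR. The count was also 5 without wild-type replicate 2 or replicate 5, or without knockout replicate 1 alone. Other tissue components moved with genotype here: 10 general neuron markers summed to 8799.7 to 12096.6 CPM in naive wild type and 12462.6 to 15316.8 CPM in naive knockout DRG, with 5 of 10 called higher and 0 lower. Of 6 astrocyte or satellite glia markers 4 were higher (Aldh1l1, Aqp4, Gja1 and Kcnj10) and Fabp7 was lower, with sums of 707.2 to 1048.2 CPM in wild type and 584.0 to 726.6 CPM in knockout. Haemoglobin and other red cell genes summed to 721.2 to 3438.7 CPM in wild type and 188.8 to 599.7 CPM in knockout, with 5 of 5 lower, as were 5 of 5 neutrophil and 5 of 8 macrophage markers. Their part in the glutamate genes was not tested. After injury, 8 of 8 macrophage markers were higher in DRG of either genotype, summing to 129.8 to 238.8 CPM in naive and 340.9 to 607.5 CPM in injured wild type, and the general neuron markers were split, with 2 higher and 3 lower in wild type and 2 higher and 5 lower in knockout. Of 8 sensory neuron markers 3 were lower and 0 higher after injury in either genotype, with sums of 3553.7 to 4877.3 CPM in naive and 3089.3 to 3834.6 CPM in injured wild type, and 4582.6 to 4989.2 and 3557.7 to 4016.9 CPM in knockout. Their part in the injury results was not tested either.

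Among injured DRG libraries 2 of 33 genes were higher and 1 lower in knockout (2.39% and 2.71% of all genes, 5.1% in either direction), and for 3 of the 33 the libraries did not overlap (12.3% of all genes). Gria1 held 12.9, 14.5, 18.9 and 20.5 CPM in injured wild type and 7.7, 7.83, 8.59 and 11.2 CPM in injured knockout, without overlap (-0.91 ± 0.17, adjusted p = 0.00267). Grm8 held 7.35, 8.39, 9.1 and 10.7 CPM against 11.8, 11.9, 12.1 and 13.6 CPM, again without overlap (0.48 ± 0.12, adjusted p = 0.022). Homer1, whose short form is induced by activity, held 16.6, 17.9, 19.5 and 20 CPM against 21, 21.7, 22.1 and 22.7 CPM (0.25 ± 0.07, adjusted p = 0.0418). Gria1 was the only one of the 3 that kept its call in every alternative that was run. Grm8 had adjusted p of 0.079 without knockout replicate 1, 0.0883 without wild-type replicate 2 and 0.0689 without wild-type replicate 4 by edgeR, where 1 member was called in each case, and 5 members were called without wild-type replicate 3. Slc17a7, Slc17a8 and Dlg2, called among naive libraries, were at 0.24 ± 0.21, -0.14 ± 0.17 and 0.36 ± 0.11 (adjusted p = 0.516, 0.675 and 0.0708).

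**Figure D5:**
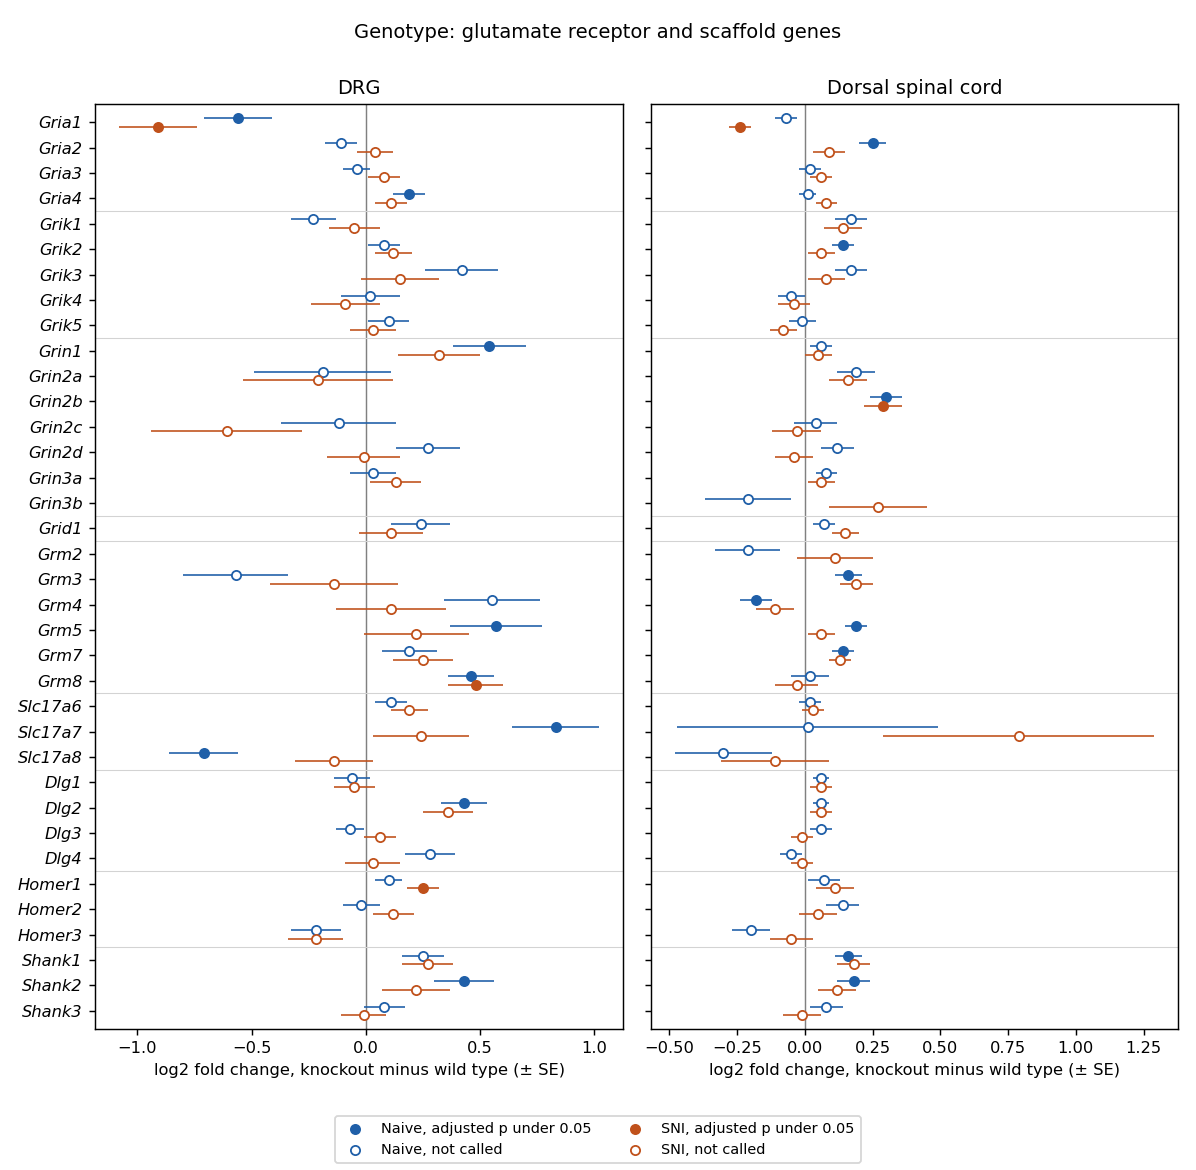
Log2 fold change of each gene with genotype (x axis, knockout minus wild type, ± standard error) in DRG and dorsal spinal cord, among naive and among SNI libraries. Filled points are called: Gria1 lies left of 0 in all 4 contrasts and is called in 3 of them, and Grin2b is called higher in both cord contrasts, at 0.30 and 0.29.

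Gria1 in naive DRG held 11.1, 11.8, 12.0, 16 and 16.3 CPM in wild type and 8.26, 8.54, 8.65, 9.55 and 11.3 CPM in knockout (-0.56 ± 0.15, adjusted p = 0.0143), with 1 knockout library inside the wild-type range. The naive and injured contrasts use separate libraries. In injured cord Gria1 held 152.1, 161.0, 169.1 and 169.7 CPM in wild type and 128.8, 133.0, 144.4 and 146.1 CPM in knockout, without overlap (-0.24 ± 0.04, adjusted p = 0.000759). In naive cord it was at -0.07 ± 0.04 (adjusted p = 0.226), and 142.3 to 157.4 CPM overlapped 143.7 to 147.6 CPM.

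In naive cord 8 of 36 genes were higher and 1 lower in knockout, where 9.79% of all genes were higher and 9.94% lower (19.7% in either direction), and the median log2 fold change was 0.06 over the 36 and -0.01 over all genes. The higher genes were Gria2, Grik2, Grin2b, Grm3, Grm5, Grm7, Shank1 and Shank2, all by 1.10-fold to 1.23-fold, and Grm4 was 1.13-fold lower. The libraries did not overlap for 2 of the 36 (11.7% of all genes), Grin2b and Shank1. Grin2b, the NMDA subunit gene known for its role in pain-related plasticity of the dorsal horn, held 54.2, 58.2, 63.6, 64.1 and 67.6 CPM in wild type and 67.9, 71.9, 75.1, 79.1 and 84.8 CPM in knockout, just without overlap (0.30 ± 0.06, adjusted p = 0.0016). Gria2 held 316.9, 352.1, 352.3, 382.4 and 401.5 CPM against 398.8, 422.4, 430.4, 431.9 and 469.2 CPM (0.25 ± 0.05, adjusted p = 0.00175), with 1 library of each genotype crossing.

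Grm5 held 136.4, 148.4, 150.2, 157.3 and 163.5 CPM in wild-type and 159.3, 169.7, 174.2, 175.8 and 186.1 CPM in knockout naive cord (0.19 ± 0.04, adjusted p = 0.00361). Grm7, which restrains release at presynaptic terminals, held 48.2, 49.5, 51.2, 52.3 and 53.0 CPM against 52.6, 54.2, 56.0, 58.1 and 58.9 CPM (0.14 ± 0.04, adjusted p = 0.0127). In both genes 1 library of each genotype crossed. Gria2, Grin2b, Grm5 and Grm7 were the 4 genes that kept their call in every alternative that was run. The count of 9 was 4 without knockout replicate 1 or without wild-type replicate 2, and 5 without knockout replicate 4. Red cell genes were lower in naive knockout cord as well, with 4 of 5 called and sums of 175.2 to 496.4 CPM in wild type and 141.4 to 177.5 CPM in knockout, while 1 of 10 neuron markers was higher and 2 lower. Of the astrocyte markers Gja1 was higher and Gfap and Kcnj10 were lower, with Gfap at 1086.7 ± 132.9 CPM in wild type and 801.4 ± 64.7 CPM in knockout. C1qa and C1qb of the macrophage or microglia list, Slc32a1 of the cord neuron list, Mbp of the oligodendrocyte list and Ncmap of the Schwann cell list were lower too, and the 5 Schwann cell markers summed to 598.9 to 1200.3 CPM in wild type and 344.9 to 892.2 CPM in knockout. Their part was not tested.

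In injured cord Grin2b was again higher, with 52.5, 54.8, 58.6 and 61.3 CPM in wild type and 65.6, 68.1, 71.1 and 73.1 CPM in knockout, without overlap (0.29 ± 0.07, adjusted p = 0.0115). Grin2b and Gria1 were the members called there, 1 higher and 1 lower of 36 (2.95% and 3.31% of all genes, 6.26% in either direction), and both held in every alternative that was run. For 5 of the 36 the libraries did not overlap (13% of all genes). In DRG, where Grin2b was too low to test, its naive libraries held 0.171 to 0.322 CPM in wild type and 0.0402 to 0.164 CPM in knockout.

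Of 38 other genes of glutamate signalling that are not among the 36, 35 could be tested in DRG and 37 in cord. After injury 7 of 35 rose and 5 fell in wild-type DRG (12.6% and 12.3% of all genes), and 6 rose and 8 fell in knockout DRG (15.1% and 13.3% of all genes). Neto1 and Neto2, the auxiliary subunits of kainate receptors, rose in both. Neto1 went from 11.6 ± 0.925 to 30.0 ± 3.5 CPM in wild type (log2 fold change 1.38 ± 0.08, adjusted p = 2.1e-10) and from 11.1 ± 0.715 to 38.2 ± 0.844 CPM in knockout (1.81 ± 0.08, adjusted p = 4.19e-12). Shisa9, an auxiliary AMPA subunit gene, rose from 0.603 ± 0.132 to 3.38 ± 1.05 CPM in wild type and from 0.568 ± 0.174 to 3.52 ± 0.738 CPM in knockout. Cacng2, which encodes stargazin, fell in both, by 0.64 ± 0.21 and 0.96 ± 0.21 on the log2 scale, as did Camk2a, Camk2b, Gls2 and Slc1a1. In cord 1 gene of 37 fell in each genotype (0.271% and 0.626% of all genes), Cacng2 in wild type (-0.19 ± 0.04, adjusted p = 0.0078) and Shisa9 in knockout (-0.16 ± 0.04, adjusted p = 0.035).

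With genotype, 11 of 35 were higher and 1 lower in naive knockout DRG (12.8% and 15.4% of all genes), and 3 higher and 0 lower in injured DRG (2.39% and 2.71%). In cord 9 of 37 were higher and 2 lower among naive libraries (9.79% and 9.94% of all genes), and 3 higher and 1 lower among injured ones (2.95% and 3.31%). Glul, the glutamine synthetase gene of astrocytes and satellite glia, was higher in all 4, at 252.0 ± 13.0 and 333.6 ± 20.3 CPM in naive DRG of wild type and knockout (0.39 ± 0.06, adjusted p = 0.00023) and by 0.36 ± 0.07, 0.16 ± 0.04 and 0.19 ± 0.05 in the others. Of 6 astrocyte or satellite glia markers 4 were higher and 1 lower in naive knockout DRG, and 1 was higher in injured knockout DRG. In naive knockout cord 1 was higher and 2 lower, and in injured cord none was called. The part of these markers was not tested. Gsg1l, an AMPA auxiliary gene, was lower in both cord contrasts, by -0.30 ± 0.08 in naive and -0.46 ± 0.09 in injured libraries.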

How the data were processed

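Poly(A) RNA of DRG and dorsal spinal cord was sequenced from 36 libraries, prepared with a stranded mRNA kit per the labels' protocols. The authors deposited estimated counts per gene; FastQC 0.11.5, HISAT2, RSEM and the build GRCm38 are named in the submitters' processing notes, without their roles. In the deposited table the column of injured wild-type DRG replicate 1 held decimal commas in 9150 cells, which were read as points, and 1 cell with a letter, which was restored to 1780.86 from the normalised table. That second table holds signal values, normalised by the authors in a way not given in the sources used here, and served only for this repair. The 36 genes, the other lists and the tests were chosen with earlier results of these data known. The level of the knocked-out gene is not reported here.

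Estimated counts were rounded and tested with edgeR 4.0.16 (R 4.3.3; TMM scaling, filterByExpr, robust quasi-likelihood F test), with all 18 libraries of a tissue in 1 fit, or all 36 for comparisons of tissues, and Benjamini-Hochberg adjustment over all genes tested. Levels are CPM on one TMM scale over the 36 libraries. Genes were named when called, with values per library for the 4 of lowest adjusted p in a comparison. Values per library for Gria1 and, in some comparisons, Grik1, Grik2, Shank1 and Slc17a7 were added after their values were seen. Gene names, and exon lengths, came from GENCODE M21. Promoter sequences came from RefSeq, GRCm38.p6. No 2 libraries of a group were alike: over 64 pairs the mean chi-square per gene was 2.44 to 51.7, where 1 is sampling noise. Libraries of the 2 tissues with the same number in their column names deviated together in naive wild type (r = 0.145 to 0.341 in 5 pairs), so these numbers were taken to pair the tissues there. The alternatives were other size factors, DESeq2 1.42.0, no filter, only the groups compared, no libraries with conflicting labels, blocks for the title letter or column number, and each library left out.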

Additional observations from a re-analysis of the deposited data

Results flagged for a closer look

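The injury response differed between wild-type DRG and wild-type cord, by edgeR's test of the difference itself, for 11 genes. The differences in log2 fold change (DRG minus cord) were -0.85 for Gria2, -0.26 for Gria3, -0.55 for Gria4, -0.78 for Grik1, -0.42 for Grin3a, -0.76 for Grm3, -0.43 for Grm8, -0.91 for Slc17a8 and -0.58 for Shank1, and 0.33 for Grik2 and 0.56 for Homer3. With the number shared by the tissues as a block, Gria3 and Grm3 were not called (adjusted p = 0.0502 and 0.0534).

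Single libraries stood far from the rest of their group by Dixon's test for 5 of 120 combinations of 15 genes and 8 groups, where chance gives about 1 in 20. They were Grik1 in injured wild-type cord replicate 3 (17.9 CPM, low), Grin2b in injured knockout DRG replicate 4 (0.311 CPM, high), Grin2d in naive knockout cord replicate 3 (37.5 CPM, high), Grm5 in naive wild-type DRG replicate 4 (2.05 CPM, high) and Grm5 in injured knockout cord replicate 3 (143.2 CPM, low).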

How the results depend on the processing

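Of the members called in a comparison, none changed direction under the alternatives run: 1434 values kept their direction and side of the threshold, and 163 kept their direction and were no longer called. Directions of members not called were not followed. The number of called members moved by over 1.5 times in a few cases, whose cause was not tested except where fewer libraries entered the fit. Without the 2 knockout libraries with conflicting labels, 5 members differed by genotype in naive DRG. In fits of only the groups compared, 1 member differed by genotype in injured DRG, and 7 differed in injury response between DRG and cord.

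The block for the number in the column names, where it was added after the data were seen for comparisons within a tissue, gave 1 called member for injury in knockout cord and 4 for genotype in injured cord. Same-numbered libraries did not deviate together in most pairs across genotypes (r = -0.199 to 0.406, 6 of 18 pairs over 0.1) or across injury (-0.071 to 0.404, 5 of 16 pairs). The 5 pairs over 0.1 across injury were all of DRG (r = 0.32 to 0.404), while the other DRG pairs ran from -0.043 to 0.071. The numbers thus do not consistently pair those groups, though some same-numbered DRG libraries deviated together. With the number shared by the tissues as a block 34 members were again called between tissues, and Gria3 and Grm3 were no longer called for the difference in injury response between tissues (adjusted p = 0.0502 and 0.0534 in edgeR). The blocks changed no other count of called members by over 1.5 times.

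With each library left out in turn, the count of called members ran from 11 to 14 for injury in wild-type DRG, 13 to 16 in knockout DRG, 0 to 1 in wild-type cord and 0 to 3 in knockout cord. It ran from 5 to 13 for genotype in naive DRG, 1 to 5 in injured DRG, 4 to 12 in naive cord and 2 to 4 in injured cord, 34 to 35 between tissues, 8 to 12 for the difference in injury response between tissues, and stayed at 0 for the genotype differences in injury response.

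Counts over all genes also moved: 4864 against 3216 (only the groups compared) for injury in wild-type DRG, 5506 against 2626 (without the 2 libraries with conflicting labels) for genotype in naive DRG, 994 against 649 (only the groups compared) in injured DRG, and 5 against 24 (DESeq2), 3 (letter block), 2 (without those libraries) and 0 (number block) for the genotype difference in injury response in DRG. In cord, 51 genes were lower after injury in wild type, against 104 with DESeq2 and 28 with only the groups compared, and 118 in knockout, against 72 with the number block. By genotype in naive DRG 2494 genes were higher and 3012 lower, against 2889 and 2802 with RLE size factors, 3224 and 3010 with DESeq2, and 3020 and 2872 with only the groups compared. For the difference in injury response between tissues 1153 genes were higher and 1427 lower, against 1094 and 873 without a filter and 970 and 765 with only the groups compared. Depth limits Grin2b, Grin3b and Grm2 in DRG, which were too low to test there. Grin2c was tested in DRG at group means of 0.216 to 0.464 CPM.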
